A study of Mus musculus with 24 samples.

Results

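Brown and white adipocytes were compared after 7 days in primary culture, on 5 arrays of mouse brown fat cells and 6 arrays of mouse white fat cells. These 11 arrays were chosen by the labels alone, out of 24 in the series. The other 13 hold the same cell types at day 4 (5 brown and 8 white arrays), when the labels call the cells not yet differentiated, whereas the day 7 cells are called differentiated. Each array is an Affymetrix Murine Genome U74Av2 chip, on which a gene is read by 1 or more probe sets of short oligonucleotides. The labels give no strain, sex, age, fat depot, culture medium or agent for any group, and do not state if arrays of 1 group stem from different mice or dishes. A p-value here therefore measures only the spread between arrays, which may be technical. Arrays are named below by the number in their label, which is 7, 8, 11, 12 and 22 for brown day 7 and 35, 36, 39, 40, 43 and 44 for white day 7. All brown numbers lie below all white numbers, at day 4 as well. Anything tied to the order of the numbers therefore cannot be told apart from the cell type.

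White adipocytes store triglyceride in a large lipid droplet and secrete hormones such as leptin and adiponectin. Brown adipocytes hold many mitochondria and burn fat to make heat. They do so through uncoupling protein 1, the product of Ucp1, which lets protons return across the inner mitochondrial membrane without making ATP. Both cell types are driven to differentiate by the nuclear receptor PPARγ, whose gene is Pparg. Classical brown adipocytes share an embryonic origin with skeletal muscle, and brown and white precursors carry different sets of developmental transcription factors.

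At day 7 the brown arrays carried higher signal for Cidea (a protein of lipid droplets, typical of brown fat), for the cytochrome c oxidase subunit gene Cox7a1 and for the transcription factor genes Meox2, Lhx8 and Zic1. Genes of oxidative phosphorylation, the TCA cycle and fatty acid oxidation were higher in brown in most of their members. The white arrays carried higher signal for Tcf21, Wnt4, Aldh1a3, Igfbp3 and Dpt and for many extracellular matrix genes. Of 17 smooth muscle and pericyte genes 9 were lower in brown and 5 higher. Among 33 genes that define an adipocyte, 6 were higher in brown, among them Pparg, and 7 were lower. Adipoq and Cebpa did not pass the test, nor did Lep, a gene tied to white fat. Of the 6281 genes tested, 1598 passed it (25.4%), with 827 higher in brown (13.2%) and 771 lower (12.3%).

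Before these results, 1 property of the arrays has to be given. The chip carries control probe sets at the 3′ and the 5′ end of a few transcripts, and labelling starts at the 3′ end, so that their ratio rises when RNA is degraded or labelling is short. The Gapdh ratio was 0.92, 0.94, 0.87, 0.87 and 0.85 on brown arrays 7, 8, 11, 12 and 22. On white arrays 35, 36, 39, 40, 43 and 44 it was 1.48, 1.54, 1.46, 1.09, 1.49 and 1.11. All 6 white arrays lay above all 5 brown arrays, and white arrays 40 and 44 lay nearest to them. The means were 0.889 ± 0.0379 (SD, n = 5) in brown and 1.36 ± 0.204 (SD, n = 6) in white (exact permutation test, two-sided, p = 0.00433, the smallest this design allows, adjusted p = 0.00577 over 4 control genes).

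The beta-actin ratio was 1.62 ± 0.206 (SD, n = 5) in brown and 2.38 ± 0.296 (SD, n = 6) in white (exact permutation test, adjusted p = 0.00577). It ran from 1.44 to 1.87 in brown and from 1.93 to 2.76 in white. The pyruvate carboxylase ratio ran from 2.99 to 5.15 in brown and from 5.85 to 22.8 in white, again with no overlap (exact permutation test, adjusted p = 0.00577). The transferrin receptor ratio overlapped, with 2.42 to 4.53 in brown and 1.12 to 4.79 in white (exact permutation test, adjusted p = 0.398). At day 4 the Gapdh ratio was 0.884 ± 0.0825 (SD, n = 5) in brown and 0.943 ± 0.0955 (SD, n = 8) in white, so that the white day 7 mean lay above those of the other 3 groups. Probe sets for the B2 repeat read 7150 to 9448 in brown and 11420 to 14170 in white at day 7. The spiked CreX control, which is added in known amount, read 8584 to 9067 in brown and 10380 to 12360 in white, while the BioC spike overlapped, with 612.8 to 772.4 in brown and 650.8 to 817 in white. At day 7 the cell type and the 3′ to 5′ ratio move together, and their parts in a difference cannot be told apart.

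**Figure D1:**
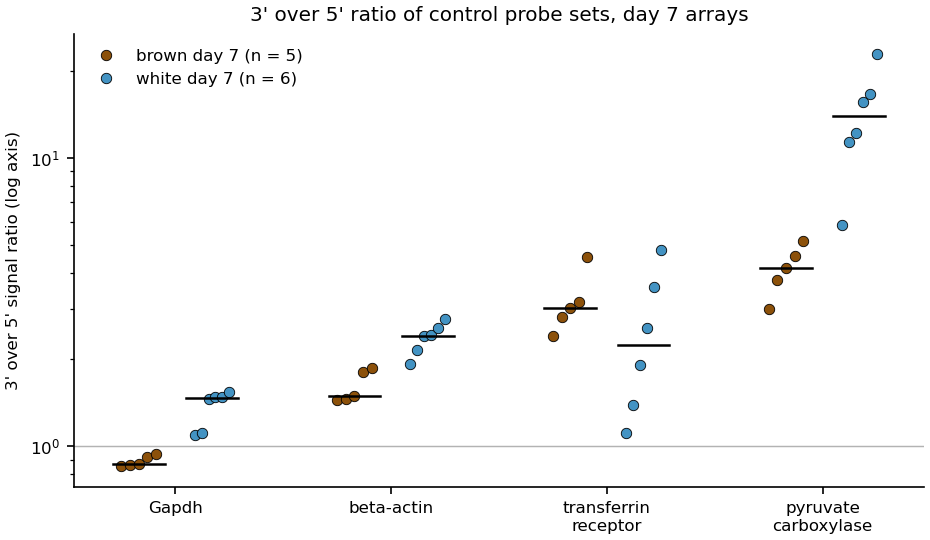
Ratio of 3′ over 5′ signal for 4 control genes on each day 7 array (log axis), with brown arrays (n = 5) and white arrays (n = 6) as points and the median of each group as a bar. The Gapdh, beta-actin and pyruvate carboxylase points of the 2 groups do not overlap, while those of the transferrin receptor do.

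Other measures of the arrays were closer. Median signal ran from 46.5 to 54.3 over the 11 arrays. The correlation of log2 signals was 0.925 to 0.964 among brown arrays, 0.933 to 0.96 among white arrays and 0.872 to 0.911 between them. Brown array 22 lay apart from the other brown arrays on the second principal component, which carried 11% of the variance, and without it 1959 probe sets passed the test in place of 2112.

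Over probe sets, 2112 of 8397 passed the test at day 7 (25.2%), with 1076 higher in brown (12.8%) and 1036 lower (12.3%). The difference reached 2-fold for 283 of the higher and 451 of the lower probe sets, and 4-fold for 55 and 93. On 1522 probe sets (18.1%) the brown and the white arrays did not overlap. Leaving out white arrays 35, 36 and 43, the 3 with the highest Gapdh ratio, left 1446 probe sets. This leaves 3 white arrays and so fewer calls by construction, and the median size of the 101 named calls was 1.01 of the size reported. White arrays 39, 40 and 44, which stay, have Gapdh ratios of 1.46, 1.09 and 1.11, all above every brown array. The ratio thus still differs between the groups, so this fit cannot show that sizes are free of it. The part of the smaller group in the calls lost below was not tested. With the Gapdh ratio as a covariate 274 passed, and with the beta-actin ratio 410. Both ratios move with the cell type at day 7, so that fits with them also lose precision and calls. In these fits the named genes past the threshold kept most of their size, with a median of 0.93 and 0.964 of the size reported, and 46 and 54 of 101 kept their call. Many of them were named for a large difference in these same data, so these medians and the 1.01 above do not carry over to all probe sets. Single genes moved either way, such as Hipk2 from −3.575 to −1.331 and Cck from −3.982 to −5.349 with the Gapdh ratio.

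The arrays of a group may also not be independent of each other. Most array numbers in the labels run in neighbouring pairs (7 and 8, 11 and 12, 35 and 36, 39 and 40, 43 and 44), and some values follow the pairs. As an example picked after its values were seen, the summed signal of adipocyte genes was 61140 and 62160 on white arrays 35 and 36, 46380 and 44900 on 39 and 40, and 63600 and 62300 on 43 and 44. Over all tested probe sets the deviations from the group mean were correlated between arrays. Such correlations are negative on average by construction, so their sign says nothing about dependence. In brown they were −0.191 and −0.116 within the pairs and −0.371 to −0.125 between other arrays. In white they were −0.229 to −0.0913 within the pairs and −0.357 to −0.00613 between other arrays. The ranges overlapped, which does not show that the arrays of a pair are independent. The labels do not say what a pair shares. With neighbouring numbers as a random block, whose estimated correlation was 0.292, 1460 probe sets passed. With the mean of each pair as 1 sample and brown array 22 alone, which leaves 3 brown and 3 white samples and so fewer calls by construction, 947 passed, and 76 of the 101 named calls were kept. These fits, chosen after the data were seen, are given below beside the counts and genes they bear on most. Every count of a gene list below stands against 13.2% higher and 12.3% lower over all genes tested.

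**Figure D2:**
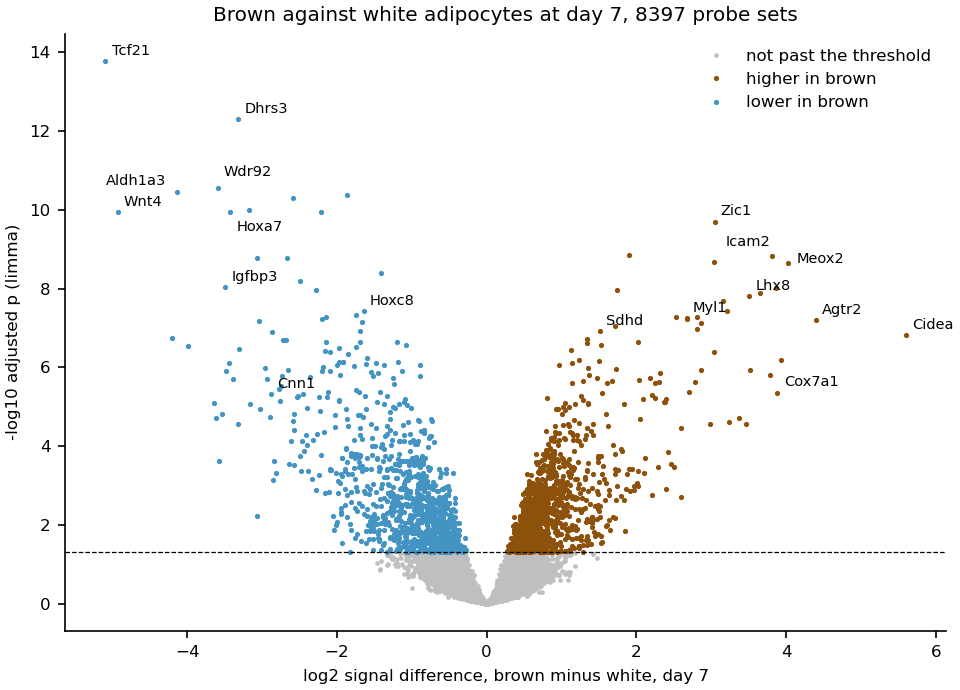
Each point is 1 of 8397 probe sets, with the log2 signal difference of brown minus white at day 7 on the x axis and -log10 of limma's adjusted p on the y axis, and the dashed line marks an adjusted p of 0.05. Cidea lies farthest to the right at 5.60 and Tcf21 farthest to the left at −5.09.

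Among genes of heat production, 6 of the 8 tested were higher in brown and none was lower (13.2% of all genes tested were higher), with a median log2 difference of 1.57 against 0.0016 over all genes. Cidea read 1083, 1754, 159.6, 472 and 268 on brown arrays 7, 8, 11, 12 and 22. On the white arrays it read 6.78 to 15.8 with a median of 9.71. Every brown array lay above every white array, with brown arrays 7 and 8 highest and array 11 lowest. The log2 difference was 5.60 ± 0.60 (SE; limma, adjusted p = 1.55e-07). On 3 of 6 white arrays it lay under the floor of 8.21, below which signals are not ordered. A difference with arrays under the floor in 1 group is smaller than the raw signals give and depends on the floor. In white this holds, among others, for Meox2, Tnnc1 and Rpl39l (3 arrays), Lhx8, Icam2, Il1rn and Rasip1 (4 arrays) and Gimap4 (2 arrays), and in brown for Tcf21 (1 array), Aldh1a3 and Hoxa7 (2 arrays), Zbtb20 and Hipk2 (3 arrays) and Mmp8 (4 arrays). Cox7a1, a subunit isoform of heart, muscle and brown fat, read 888, 972, 238, 603 and 875 in brown, where array 11 was again the lowest. It read 18.9 to 103 with a median of 39 in white (log2 difference 3.88 ± 0.53, limma adjusted p = 4.39e-06). Cox8b, another tissue-restricted subunit, read 2567, 4117, 589.6, 1711 and 1137 in brown and 270.4 to 696 with a median of 383 in white, and its groups overlapped through brown array 11 (2.01 ± 0.42, limma adjusted p = 0.000845). A second, dimmer probe set of Cox8b did not pass, at 0.49 (limma adjusted p = 0.409). Fabp3, a fatty acid carrier of oxidative tissue, differed by 1.64 ± 0.45 (limma adjusted p = 0.00769), a call lost without white arrays 35, 36 and 43 (log2 difference 1.28, limma adjusted p = 0.112) and over means of pairs (1.55, limma adjusted p = 0.0657). Pdk4, which restrains pyruvate use, and Esrra, a nuclear receptor of mitochondrial genes, were also higher in brown, with 1.51 and 0.81. The count of 6 fell to 4 without white arrays 35, 36 and 43, and to 4 over means of pairs.

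Ucp1 did not reach the signal filter and was read without it, in a fit over all 12422 non-control probe sets of which 2044 passed (16.5%). Its first probe set read 113, 125, 17.4, 19 and 53.1 in brown, and 4.5 to 21.3 in white with a median of 8.71. Brown arrays 7, 8 and 22 lay above all white arrays, while brown arrays 11 and 12 lay inside the white range. The log2 difference was 2.07 ± 0.50 (SE; limma, adjusted p = 0.00627). The second Ucp1 probe set read 9.32 to 27.9 in brown and 9.71 to 29.7 in white and did not pass (log2 difference 0.15, limma adjusted p = 0.854). Ppargc1a, a coactivator of mitochondrial genes, Dio2, which activates thyroid hormone, and Elovl3, a fatty acid elongase of stimulated brown fat, did not reach the signal filter either. The highest day 7 signal of Ppargc1a was 13.9, that of Dio2 25.4 and that of Elovl3 34.6, beside a floor of 8.21.

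Of 10 transcription factors tied to the brown lineage, 5 were higher in brown, none was lower and 5 did not pass (13.2% of all genes were higher). The count stayed at 5 over means of pairs. Zic1, a zinc finger factor of brown fat and dorsal tissue, read 74.2, 59.6, 76.5, 69.3 and 61 in brown and lay at the floor on all 6 white arrays, which makes it at least 8.25-fold higher (limma, adjusted p = 2.02e-10). Among day 7 arrays only brown ones, where Zic1 was high, could count toward the signal filter. Its p-value is no support apart from that choice. Lhx8, a LIM homeobox gene used as a marker of classical brown fat, read 118, 79, 167, 146 and 143 in brown and 3.83 to 26.9 with a median of 6.75 in white (3.50 ± 0.33, limma adjusted p = 1.55e-08). Meox2, a homeobox gene of somites and muscle precursors, read 163, 138, 223, 207 and 201 in brown and 2.85 to 16 with a median of 11.1 in white (4.03 ± 0.34, limma adjusted p = 2.28e-09). For all 3 genes the groups were wide apart, and array 11, lowest for Cidea, was highest for Lhx8 and Meox2. Tbx15 and Ebf3 were higher, with log2 differences of 2.52 and 0.96, whereas Ebf2, a factor of brown differentiation, did not pass at 0.41.

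**Figure D3:**
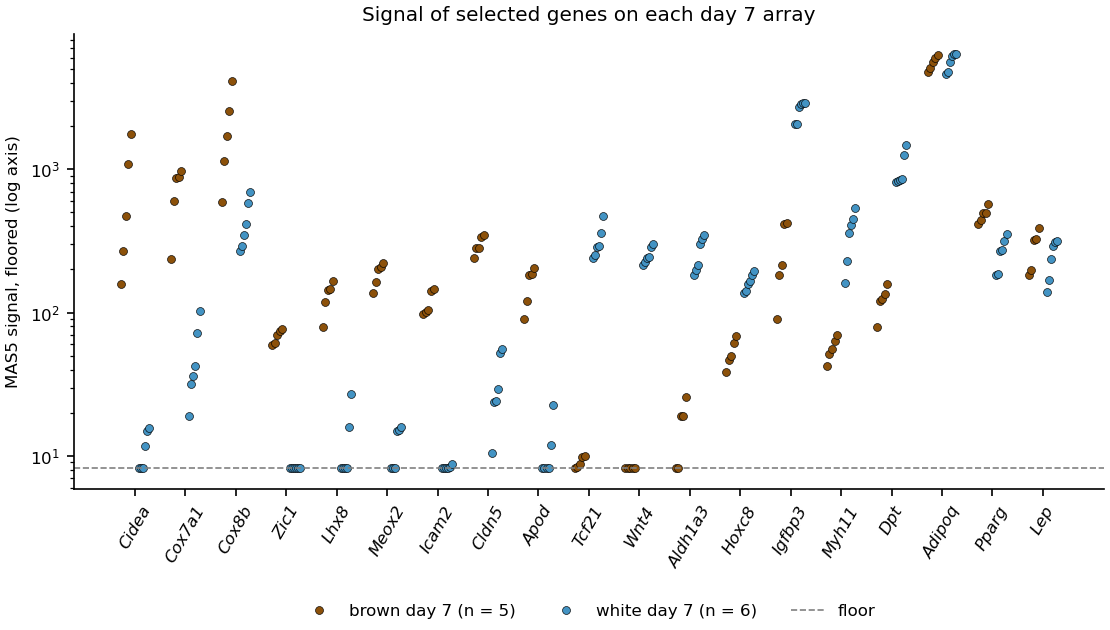
Signal of 19 genes on each day 7 array (log axis), with brown arrays (n = 5) at the left and white arrays (n = 6) at the right of each pair and the floor, to which lower values were raised, as a dashed line. From Cidea to Apod the brown points lie above the white ones except for an overlap in Cox8b, from Tcf21 to Dpt they lie below, and at the right end the groups overlap for Adipoq and Lep but not for Pparg.

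Genes tied to white fat or its precursors leaned the other way, with 8 of 17 lower in brown and 1 higher (12.3% and 13.2% of all genes). Tcf21, a basic helix-loop-helix factor of visceral and white precursors, read 7.87, 9.88, 8.8, 8.42 and 9.97 on the brown arrays, all near the floor. It read 239 to 471 with a median of 290.3 on the white arrays (log2 difference −5.09 ± 0.23, limma adjusted p = 1.67e-14). Wt1, a factor of the mesothelium and of visceral fat, read 16, 20.2, 14.8, 17.1 and 21.8 in brown and 70.2 to 101 with a median of 85.9 in white (−2.28 ± 0.21, limma adjusted p = 1.08e-08). Dpt, which encodes the matrix protein dermatopontin, was lower in brown by a log2 difference of −3.03 ± 0.31, with signals of 79.2 to 158 in brown and 820.0 to 1474 with a median of 848 in white. Nrip1, a corepressor of oxidative genes, and Tle3, a corepressor of white fat, were also lower, with −1.70 and −0.77. The member that was higher in brown was Nnat (neuronatin), with 187 to 412 in brown and 6.27 to 43.8 with a median of 29.9 in white (3.47 ± 0.53, limma adjusted p = 2.72e-05).

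Retn, which encodes the white fat hormone resistin, read 889, 997, 536, 926 and 1166 in brown and 1440.3 to 3134 with a median of 2802 in white, so that all brown arrays lay below all white arrays. In the fit over all 4 groups it did not pass (−1.43 ± 0.70, limma adjusted p = 0.139), but it did in a fit to the day 7 arrays alone (limma adjusted p = 0.000321). Lep, the leptin gene, read 183 to 392 in brown and 139 to 318 with a median of 264 in white and did not pass (0.23 ± 0.25, limma adjusted p = 0.557). Agt, the angiotensinogen gene, likewise overlapped, at 0.30 ± 0.31 (limma adjusted p = 0.519).

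Hox genes, which set position along the body axis, split by gene. Of 21 tested, 6 were higher and 5 lower in brown (13.2% and 12.3% of all genes). The counts depended on single arrays, and fell as far as 3 and 3 when 1 array was left out. They were 3 and 3 over means of pairs, and 1 and 3 with the Gapdh ratio as a covariate. Hoxa7 read 6.2, 8.32, 8.5, 5.89 and 14.9 in brown and 64 to 148 with a median of 107 in white (−3.42 ± 0.25, limma adjusted p = 1.14e-10). Hoxc8 read 38.8, 68.3, 61.4, 50.1 and 46.9 in brown and 136 to 194 with a median of 162 in white (−1.64 ± 0.16, limma adjusted p = 3.82e-08), and Hoxc9 differed by −1.70 ± 0.23. On the other side, Hoxd9 read 35.5 to 69.9 in brown and 12.4 to 32.6 with a median of 17.5 in white (1.48 ± 0.36, limma adjusted p = 0.00314), and Hoxd8, Hoxb5, Hoxc5 and Hoxa4 were higher, with log2 differences of 1.05, 0.91, 0.87 and 0.54. Members of 1 cluster thus went both ways, since Hoxc5 was higher while Hoxc8, Hoxc9 and Hoxc4 (−0.77) were lower. Of the 31 Hox genes on the array, Hoxb9, Hoxd12 and Hoxd13 lay at the floor on all 11 day 7 arrays.

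The respiratory chain, which passes electrons to oxygen and drives the ATP synthase, was higher in brown across its complexes. Of 61 genes of oxidative phosphorylation tested, 46 were higher in brown and none was lower, with a median log2 difference of 0.68. Its summed signal per array was 89480 to 138120 in brown and 55168 to 84120 in white. Sdhd, which anchors complex II in the membrane, read 3250.2, 3476, 2132, 2501 and 2301 in brown and 693 to 1259 with a median of 956 in white (1.51 ± 0.16, limma adjusted p = 1.21e-07). Sdhb, its iron-sulfur subunit, read 2606, 2926, 1996, 2289.5 and 2553 in brown and 814 to 1228 with a median of 1022 in white (1.28 ± 0.18, limma adjusted p = 6.72e-06). Array 11 was the lowest brown array for both, and still lay above every white array. Ndufb8 of complex I, Uqcrc1 of complex III, Cox5b of complex IV and Atp5o of the ATP synthase were higher, with log2 differences of 1.36, 1.25, 1.02 and 0.88. Subunits that did not pass included Cox4i1 at 0.28, Ndufa2 at −0.16 and Cox6b1 at −0.09. Without white arrays 35, 36 and 43 the count was 44, with the Gapdh ratio as a covariate it was 12, and over means of pairs it was 28.

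Because these genes moved together, their promoters were read from RefSeq (GRCm38.p6) and searched for the letters of 2 sites. One is GCATGCGC, the core of the site of nuclear respiratory factor 1 (NRF1), a regulator of mitochondrial genes, and the other is TGACCTT, the half-site of estrogen-related receptors such as Esrra. Both strands were searched over the 250 bases before the first listed transcription start, and the motifs were picked after the values were known. A promoter was listed for 41 of the higher genes. GCATGCGC occurred in 8 of these (19.5%), in 2 of 9 promoters of the members that did not pass, and in 2.32% of all 27025 promoters. TGACCTT occurred in 2 of the 41 (4.88%), in 0 of the 9 and in 4.05% of all promoters. The letters AGGAAG of an ETS factor site, also searched, occurred in 22% of the 41 and 29.2% of all. Below are 4 promoters that hold GCATGCGC or its reverse complement GCGCATGC, shown in capitals, and the promoter of Cox7a1, which holds neither motif although its difference was the largest of the list. The windows are chr4:140961021-140961270 for Sdhb, chr3:79628768-79629017 for Etfdh, chr9:55512244-55512493 for Etfa, chr5:115348959-115349208 for Cox6a1 and chr7:30183921-30184170 for Cox7a1. Sdhb and Cox7a1 lie on the plus strand and the other 3 on the minus strand.
Sdhb: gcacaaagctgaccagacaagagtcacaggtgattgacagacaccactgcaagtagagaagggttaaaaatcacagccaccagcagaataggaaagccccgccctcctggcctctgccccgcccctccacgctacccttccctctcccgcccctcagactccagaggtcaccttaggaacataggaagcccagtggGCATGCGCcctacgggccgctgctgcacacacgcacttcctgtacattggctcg
Etfdh: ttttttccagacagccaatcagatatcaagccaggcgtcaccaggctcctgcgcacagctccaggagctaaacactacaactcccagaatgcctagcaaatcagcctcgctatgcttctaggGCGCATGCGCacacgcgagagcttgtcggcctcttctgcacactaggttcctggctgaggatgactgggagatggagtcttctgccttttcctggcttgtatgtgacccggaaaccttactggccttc
Etfa: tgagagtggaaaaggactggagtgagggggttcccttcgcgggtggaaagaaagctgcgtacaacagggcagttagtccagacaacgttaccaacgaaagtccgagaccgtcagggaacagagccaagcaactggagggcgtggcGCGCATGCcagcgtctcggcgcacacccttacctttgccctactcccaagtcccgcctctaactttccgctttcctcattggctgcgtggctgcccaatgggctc
Cox6a1: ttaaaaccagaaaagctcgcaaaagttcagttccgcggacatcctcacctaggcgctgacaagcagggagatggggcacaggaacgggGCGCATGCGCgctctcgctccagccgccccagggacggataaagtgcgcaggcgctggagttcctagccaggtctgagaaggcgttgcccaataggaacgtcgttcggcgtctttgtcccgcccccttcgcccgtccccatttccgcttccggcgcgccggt
Cox7a1: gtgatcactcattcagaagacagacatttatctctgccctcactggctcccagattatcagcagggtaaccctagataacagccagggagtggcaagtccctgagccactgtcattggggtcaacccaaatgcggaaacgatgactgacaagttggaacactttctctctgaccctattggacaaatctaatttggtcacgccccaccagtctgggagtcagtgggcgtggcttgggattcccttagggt

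In Sdhb the match starts 54 bases before the transcription start, and in Etfdh, 128 bases before it, the match overlaps its own reverse complement. The log2 differences of these genes were 1.28 for Sdhb, 1.25 for Etfdh, 0.89 for Etfa and 0.65 for Cox6a1, beside 3.88 for Cox7a1. A match is a run of letters and was not tested as a binding site.

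The TCA cycle, which feeds electrons to the chain, showed the same direction in 18 of 23 genes, with none lower and a median log2 difference of 0.79. Idh2, Idh3a and Pdhb, which make carbon dioxide and reduced cofactors, were higher, with log2 differences of 1.15, 1.14 and 1.10, and citrate synthase (Cs) by 0.80. The cytosolic enzymes Idh1, Mdh1 and Aco1 did not pass, at 0.19, 0.01 and −0.25. In fatty acid oxidation 11 of 19 genes were higher in brown and 1 was lower. Hadhb, the thiolase subunit of the trifunctional protein, read 3098, 3462, 1539.5, 2112 and 2406 in brown and 623 to 1142 with a median of 886 in white (1.48 ± 0.19, limma adjusted p = 1.91e-06), with brown array 11 lowest but still above every white array. Etfdh, which passes electrons from fatty acid oxidation to the chain, read 316 to 618 in brown and 123 to 203 with a median of 186 in white. The member that was lower was Cpt1a, the liver isoform of the enzyme that admits fatty acids to mitochondria, with 241 to 371 in brown and 407 to 574 with a median of 459 in white (−0.66 ± 0.16, limma adjusted p = 0.00283), a call lost over means of pairs (−0.63, limma adjusted p = 0.0842).

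Lipid synthesis showed no gene higher in brown. Of 19 genes 6 were lower (12.3% of all genes). Among them Gpam, the first enzyme of glycerolipid synthesis, read 707, 668, 667, 499 and 461 in brown and 1059.5 to 2166 with a median of 1724 in white (−1.48 ± 0.25, limma adjusted p = 0.000101). Me1, a source of NADPH, read 313 to 462.3 in brown and 571 to 1317 with a median of 1170.4 in white (−1.41 ± 0.24, limma adjusted p = 0.000106), and Fasn and Acly were lower, with log2 differences of −0.82 and −0.63. Scd1 and Srebf1 did not pass, at 0.06 and −0.42. Without white arrays 35, 36 and 43 only 2 genes of the list were called lower, and over means of pairs also 2. Cholesterol synthesis showed 2 genes higher and 2 lower of 16, close to the share over all genes.

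Genes that define an adipocyte were divided. Of 33 tested, 6 were higher and 7 lower in brown (13.2% and 12.3% of all genes). The median was 0.06 and the summed signals overlapped (48073 to 63720 in brown and 44897 to 63601 in white). Pparg read 498, 498, 415, 440.0 and 577 in brown and 184 to 356 with a median of 271 in white, with no overlap (0.91 ± 0.22, limma adjusted p = 0.00272). Cebpa, which acts beside it, read 2294 to 3674 in brown and 1626 to 3152 with a median of 2757 in white and did not pass (0.27 ± 0.22, limma adjusted p = 0.406). Adipoq, the adiponectin gene, read 4772 to 6306 in brown and 4611 to 6336 with a median of 5895 in white (−0.02 ± 0.31, limma adjusted p = 0.971). Fabp4, the fatty acid carrier of adipocytes, lay just outside the threshold, with 245 to 408 in brown and 368 to 466 with a median of 416 in white (−0.51 ± 0.19, limma adjusted p = 0.0504), and passed under 8 alternatives, with an adjusted p of 0.00151 under array weights. Angptl4, an inhibitor of lipoprotein lipase, was higher, with a log2 difference of 0.95 ± 0.17 (limma adjusted p = 0.000218). Its 2 other probe sets did not pass, at 0.06 (limma adjusted p = 0.832) and 0.70 (limma adjusted p = 0.367). The lower count of 7 was 2 without white arrays 35, 36 and 43 and 2 over means of pairs, where Pparg lay at 0.95 (limma adjusted p = 0.0508).

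Lipoprotein lipase itself, Lpl, was read by 2 probe sets that differed in size. The brighter read 2659 to 4882 in brown and 5208 to 6143 in white (log2 difference −0.53, limma adjusted p = 0.0183). The dimmer read 87.3 to 290.2 in brown and 1208 to 1665 in white (log2 difference −3.49, limma adjusted p = 1.27e-06). Both were lower in brown with no overlap, and their difference in size was not tested. Cidec, a lipid droplet protein of large droplets, read 26.8 to 121 in brown and 116 to 378 with a median of 305 in white (−2.05 ± 0.54, limma adjusted p = 0.00593), and the fatty acid transporter gene Slc27a1 differed by −1.60 ± 0.42. These calls were lost without white arrays 35, 36 and 43, with log2 differences of −1.61 (limma adjusted p = 0.105) and −1.36 (limma adjusted p = 0.0834), and over means of pairs (−1.89 and −1.57, limma adjusted p = 0.0586 and 0.0913).

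Glycolysis was higher in brown for 9 of 16 genes and lower for 2. Pgk1, which makes the first ATP of the pathway, read 913 to 1354 in brown and 563 to 852 with a median of 624 in white (0.85 ± 0.15, limma adjusted p = 0.000115), and Pfkp and Aldoa were higher, with log2 differences of 0.79 and 0.72. The 2 lower genes were isoforms of muscle, Hk2 (−0.92 ± 0.24, limma adjusted p = 0.00536) and Eno3 (−0.87 ± 0.20, limma adjusted p = 0.00225). Breakdown of branched-chain amino acids held 3 higher and 1 lower of 13 genes, beside 13.2% and 12.3% of all genes. With the Gapdh or the beta-actin ratio as a covariate the counts were 0 and 0. These counts are too small to be read as a result about the pathway. Both subunits of the dehydrogenase that commits these amino acids were higher, Bckdhb from 381 to 683 with a median of 539.5 in white to 766 to 1056 in brown (0.87 ± 0.20) and Bckdha by 1.04 ± 0.25, and the carboxylase gene Mccc1 was lower (−1.11 ± 0.24, limma adjusted p = 0.0012).

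**Figure D4:**
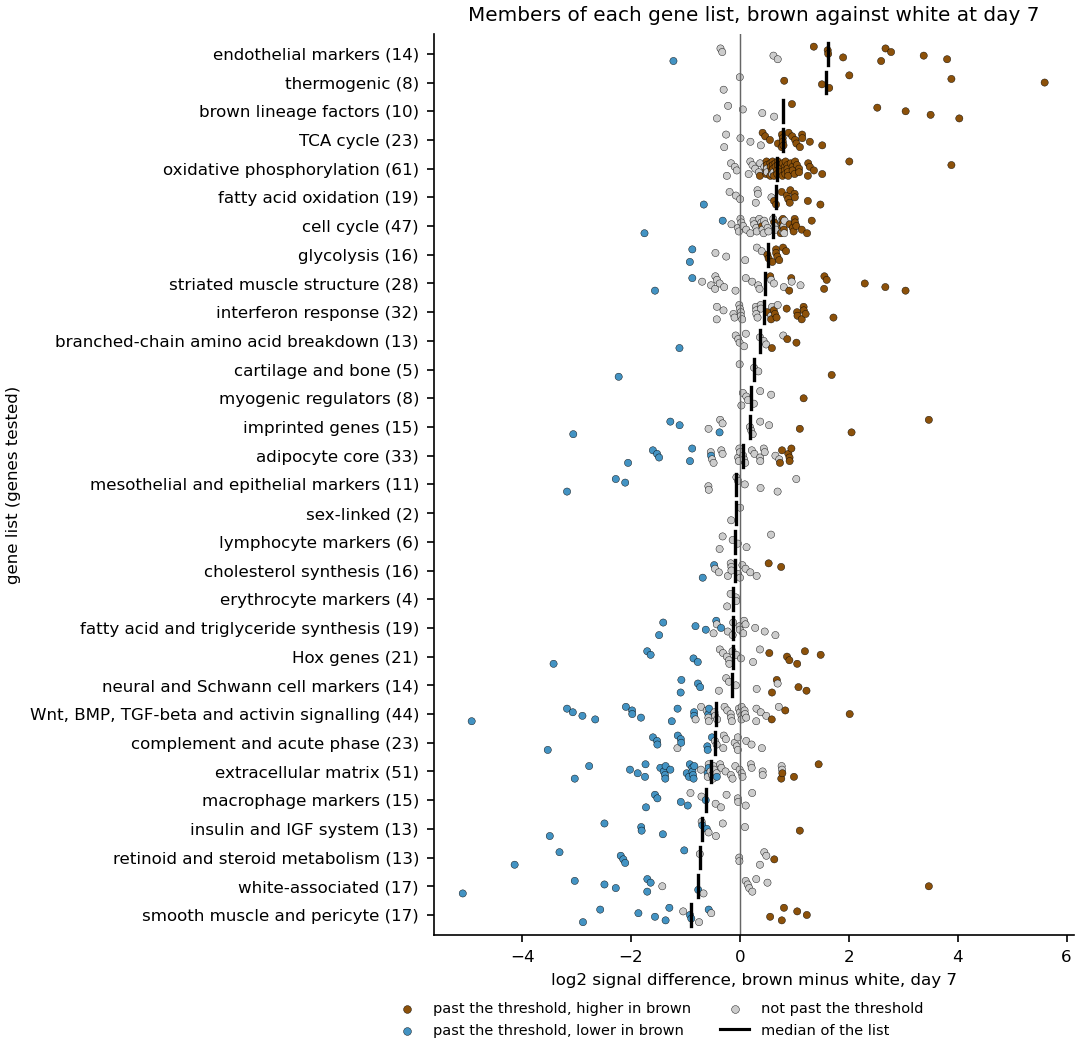
Log2 signal difference of brown minus white at day 7 for each tested gene of 31 lists, with the number of genes tested in brackets and lists ordered by their median (bar). Oxidative phosphorylation, the TCA cycle and fatty acid oxidation lie to the right of 0 with 46, 18 and 11 genes higher in brown, and extracellular matrix lies to the left with 23 genes lower.

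Striated muscle genes, which encode the contractile apparatus, were called in both directions. Of 28 striated muscle genes 9 were higher in brown and 2 lower (13.2% and 12.3% of all genes), and 20 of the 48 on the array did not reach the filter. Tnnc1, the slow and cardiac troponin C, read 79.5, 61, 120.4, 75 and 105 in brown and 4.28 to 13.9 with a median of 8.36 in white (3.04 ± 0.26, limma adjusted p = 2.07e-09). Myl1, a myosin light chain of fast muscle, read 365, 305, 401, 347 and 389.8 in brown and 50.6 to 65.6 with a median of 54.9 in white (2.67 ± 0.27, limma adjusted p = 5.6e-08). Mb, which encodes the oxygen store myoglobin, was higher, with a log2 difference of 2.29. Of the myosin genes that did not reach the filter, Myh1, of adult fast muscle, read 11.6 to 33.1 in brown and 1.87 to 13.5 in white, and passed in the fit without the filter (1.11, limma adjusted p = 0.00259). Myh3, the embryonic myosin, read 8.72 to 20.3 in brown and lay at the floor on all 6 white arrays (limma adjusted p = 0.019, without the filter). Myh2, of adult muscle, and the cardiac genes Myh6, Myl2 and Myl3 lay at the floor on all 11 arrays. Myod1 and Myog, which specify muscle, did not pass at day 7, with 74.6 to 104 in brown and 62.2 to 107 with a median of 80.1 in white for Myod1 and 30.6 to 106 and 24.5 to 92.3 with a median of 32.8 for Myog, and Myf5 lay at the floor on all arrays. Whether muscle cells lay among the brown cells was not tested. Actc1, cardiac actin, gave opposite signs on 2 probe sets, with a log2 difference of −0.42 (limma adjusted p = 0.156) on the brighter and 2.86 (limma adjusted p = 7.45e-08) on the dimmer.

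Smooth muscle and pericyte genes also split. Of 17 tested, 9 were lower in brown and 5 higher. The higher count fell to 2 when 1 array was left out and to 2 without white arrays 35, 36 and 43, and it was 1 over means of pairs, where the lower count was 8. Contractile genes were among the lower ones. Cnn1, calponin of smooth muscle, read 42.2, 26.4, 62.4, 66.9 and 97.9 in brown and 238 to 565 with a median of 441 in white (−2.88 ± 0.39, limma adjusted p = 4.75e-06). Myh11, the smooth muscle myosin, read 42.5, 63.4, 55.5, 69.6 and 51.1 in brown and 160.4 to 534 with a median of 382 in white (−2.57 ± 0.41, limma adjusted p = 3.97e-05). Pericyte genes were among the higher ones, with Abcc9, a potassium channel subunit, at 51.4 to 104 in brown and 24.4 to 47.6 with a median of 26.8 in white (1.23 ± 0.26, limma adjusted p = 0.000919), and Rgs5 and Notch3 higher, with log2 differences of 0.81 and 0.77. Pdgfrb, a receptor of both pericytes and fibroblasts, was lower (−1.37).

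The extracellular matrix held 23 lower and 4 higher of 51 genes, with a summed signal of 47278 to 69273 in brown and 81163 to 95308 in white. Ogn, which encodes a small proteoglycan of fibroblasts, read 99.6, 102, 66.1, 112 and 40.5 in brown and 453 to 831 with a median of 487 in white (−2.77 ± 0.37, limma adjusted p = 3.52e-06). Lum, Fmod and Dcn, of the same leucine-rich family, were lower, with log2 differences of −1.88, −1.36 and −1.28. The fibrillar collagen genes Col1a1, Col1a2 and Col3a1 were lower, with log2 differences of −0.98, −0.84 and −0.87. The basement membrane collagen gene Col4a2 did not pass, at 0.03, and Col6a3 was higher, with a log2 difference of 0.78. The higher count of 4 was 1 without white arrays 35, 36 and 43 and 0 over means of pairs, and the lower count was 21 and 16.

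Signalling genes of the Wnt, BMP and TGF-beta families were lower in brown for 15 of 44 and higher for 3. Among ligands, Wnt4 read 216 to 302 with a median of 241 in white and lay at the floor on all 5 brown arrays, which makes it at least 30.4-fold lower in brown (limma, adjusted p = 1.14e-10). Rspo1, a secreted amplifier of Wnt signals, was likewise at the floor in brown and read 51.9 to 106 with a median of 77.4 in white, at least 9.03-fold lower (limma, adjusted p = 9.93e-11). For Wnt4 and Rspo1 only white arrays of day 7, where they were high, could count toward the signal filter. Their p-values are no support apart from that choice. Sfrp1 and Frzb, which encode secreted Wnt antagonists, went the same way. Sfrp1 read 154, 158, 278, 299.5 and 323 in brown and 1450.0 to 2484 with a median of 2094 in white (−3.07 ± 0.26, limma adjusted p = 1.72e-09), and Frzb was lower, with a log2 difference of −2.89. Inhbb, an activin subunit, and Bmpr2, a BMP receptor, were lower, with log2 differences of −2.66 and −1.98. Tgfb1 was higher in brown, with 64.3, 68.6, 82.3, 73.2 and 43.8 against 10.2 to 26.8 with a median of 14.7 in white (2.02 ± 0.43, limma adjusted p = 0.00104), and so was the BMP target Id1 (0.83 ± 0.16). Axin2, a target of Wnt signals, did not pass at −0.61.

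In the IGF system 7 of 13 genes were lower in brown and 1 was higher, and the summed signals did not overlap (3785 to 4440.5 in brown and 9347 to 11324 in white). Igf1, the main growth factor of the pathway, read 325, 237, 167, 236 and 606 in brown and 1179.5 to 2128 with a median of 1574 in white (−2.49 ± 0.45, limma adjusted p = 0.00018). A second Igf1 probe set differed much less, at −0.46 (limma adjusted p = 0.00579). Its fetal relative Igf2 was the higher gene, with 319.9, 347, 387, 383 and 296 in brown and 86.4 to 251 with a median of 186 in white (1.10 ± 0.21, limma adjusted p = 0.000309). Binding proteins that hold these ligands were among the lower genes. Igfbp3 read 214, 412, 182, 420.3 and 90.9 in brown and 2078 to 2922 with a median of 2781 in white (−3.49 ± 0.32, limma adjusted p = 9.17e-09), while a second probe set gave −1.66, with Igfbp6, Igfbp2 and Igfbp4 lower, with log2 differences of −1.81, −1.81 and −1.41. The receptor gene Igf1r was lower, with a log2 difference of −0.69.

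The list of retinoid and steroid metabolism held 6 lower and 1 higher of 13 genes, and the lower ones included retinoid enzymes. Aldh1a3, which makes retinoic acid, read 7.03, 2.63, 25.8, 19 and 18.8 in brown and 184 to 349 with a median of 258 in white (−4.14 ± 0.27, limma adjusted p = 3.45e-11), and its relatives Aldh1a1 and Aldh1a2 were lower, with log2 differences of −2.14 and −2.11. Dhrs3, which turns retinaldehyde back to retinol, read 77.2, 87.6, 55.2, 64.9 and 65.4 in brown and 533 to 857 with a median of 735 in white (−3.31 ± 0.18, limma adjusted p = 5e-13), so that enzymes of both directions were lower. The receptor genes Rxra and Rxrb did not pass, at 0.37 and 0.49.

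Complement and acute phase genes were lower for 10 of 23, with none higher. Cfi, a protease that limits complement, read 25.3, 53.8, 30.2, 53.2 and 39.7 in brown and 342 to 609 with a median of 453 in white (−3.53 ± 0.52, limma adjusted p = 1.5e-05), and C2 read 264 to 511 in brown and 785 to 1669 with a median of 1204 in white (−1.60 ± 0.29, limma adjusted p = 0.000203). The count of 10 was 6 without white arrays 35, 36 and 43 and 4 over means of pairs. Interferon response genes ran the other way, with 13 of 32 higher and none lower. Usp18, which trims the interferon-induced tag ISG15, read 90.5, 118, 123, 121 and 98.5 in brown and 16.4 to 48.1 with a median of 36.5 in white (1.72 ± 0.33, limma adjusted p = 0.000389). Irf7, Iigp1 and Psmb9 were higher, with log2 differences of 1.17, 1.17 and 1.06, while Irf1 and B2m did not pass, at 0.30 and −0.10. With the Gapdh ratio as a covariate none of the 13 interferon calls was made, without white arrays 35, 36 and 43 there were 10, and over means of pairs 6.

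Cell cycle genes were higher in brown for 17 of 47 and lower for 2, with 42 of 47 differences above 0. Mcm7, a helicase subunit of DNA replication, read 322, 226, 342, 231 and 324 in brown and 85.7 to 168 with a median of 109 in white (1.32 ± 0.22, limma adjusted p = 6.48e-05). Ccnd1, the cyclin that starts the cycle, read 241, 243, 306, 253 and 218 in brown and 66.3 to 146 with a median of 116 in white (1.23 ± 0.19, limma adjusted p = 2.54e-05), while a dimmer probe set lay at 0.88 (limma adjusted p = 0.0519). Mki67 and Top2a, which mark dividing cells, did not pass, at 0.42 and 0.45. The higher count of 17 depended on single arrays, with 11 genes higher without brown array 22 and a range of 10 to 21 over the 11 arrays left out in turn. With neighbouring numbers as a block it was 10, over means of pairs 15, and without white arrays 35, 36 and 43 it was 14. The lower count of 2 was 0 in each of these last fits. Imprinted genes held 3 higher (Nnat, Mest and Igf2) and 4 lower of 15, beside 13.2% and 12.3% of all genes. Mest, a mark of fat expansion, read 82.9, 94.3, 104, 141 and 119 in brown and 9.47 to 52.1 with a median of 27.6 in white (2.05 ± 0.31, limma adjusted p = 2.08e-05). Meg3, a noncoding RNA, read 18.8, 31.8, 239.9, 246 and 15.5 in brown, where arrays 11 and 12 were far above the others, and 330.0 to 631 with a median of 458 in white (−3.06 ± 0.80, limma adjusted p = 0.00611), a call lost over means of pairs (−3.37, limma adjusted p = 0.0636).

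Markers of endothelial cells, the lining of blood vessels, were higher in brown for 9 of 14 and lower for 1, with a median log2 difference of 1.62. The summed signal was 2409 to 3135 in brown and 1629 to 2095 in white. Icam2, an adhesion molecule of endothelium, read 105, 142, 98.3, 145 and 102 in brown and 3.61 to 8.77 with a median of 6.85 in white (3.81 ± 0.31, limma adjusted p = 1.52e-09), with 4 of 6 white arrays under the floor, on which this size depends. Cldn5, a tight junction protein of vessels, read 239, 349, 282, 337 and 280.2 in brown and 10.5 to 55.5 with a median of 26.8 in white (3.38 ± 0.51, limma adjusted p = 1.91e-05). Emcn, Tie1, Cdh5 and Sox18 were higher, with log2 differences of 2.78, 2.68, 2.59 and 1.90. Pecam1 and Kdr, which also define endothelium, did not pass, at −0.32 and 0.69, and Flt1 was lower, with a log2 difference of −1.22, a call lost without brown array 11 (log2 difference −0.91, limma adjusted p = 0.0896) and with neighbouring numbers as a block (−1.19, limma adjusted p = 0.0754). Nos3, read without the filter, had 22.5 to 57.2 in brown and lay at the floor on all 6 white arrays (limma, adjusted p = 1.68e-07). In bulk RNA a larger share of such cells and more RNA per cell cannot be told apart.

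Other cell types showed smaller sets. Of 15 macrophage markers 6 were lower in brown and none higher, with summed signals of 986.4 to 1329 in brown and 1179 to 1900.4 in white that overlapped. Lyz2 read 32.9 to 98.9 in brown and 92.4 to 333 with a median of 183 in white (−1.56 ± 0.46, limma adjusted p = 0.0134), a call lost without white arrays 35, 36 and 43 (log2 difference −1.39, limma adjusted p = 0.0873) and over means of pairs (−1.51, limma adjusted p = 0.122). The count of 6 was 3 without these arrays and 0 over means of pairs. Itgam and Aif1 lay at the floor on all 11 arrays. None of 6 lymphocyte, 4 erythrocyte or 2 sex-linked genes passed. Of 11 mesothelial and epithelial markers 3 were lower (Rspo1, Wt1 and Aldh1a2), while Upk3b did not pass at −0.06 and Msln lay at the floor in brown. Neural and Schwann cell markers held 4 higher and 4 lower of 14 (13.2% and 12.3% of all genes), and 1 and 2 over means of pairs. Among them Ncam1 was lower, with a log2 difference of −1.09 ± 0.23, and Sox10 was higher, with a log2 difference of 0.59. Of 5 cartilage and bone genes, Alpl was lower, with 9.43 to 37.9 in brown and 73.5 to 117 with a median of 97 in white (−2.23 ± 0.33, limma adjusted p = 1.27e-05), and Col9a1 was higher, with a log2 difference of 1.69 ± 0.45. Where a gene had several tested probe sets, they often did not all pass, and the text gives the brightest. The part of these cell types in the other differences was not tested.

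Several of the widest differences lay outside these lists. Agtr2, the type 2 receptor of angiotensin II, read 236, 139, 202, 141 and 166 in brown and lay at the floor on all 6 white arrays, at least 21.1-fold higher (limma, adjusted p = 6.25e-08). Among day 7 arrays only brown ones, where Agtr2 was high, could count toward the signal filter. Its p-value is no support apart from that choice. Il1rn, the natural antagonist of the interleukin 1 receptor, read 147, 104, 166, 99.4 and 243 in brown and 3.48 to 21.1 with a median of 7.17 in white (3.78 ± 0.48, limma adjusted p = 1.61e-06). F2rl3, a thrombin receptor, read 117, 122, 89, 104 and 90.1 in brown and 6.08 to 15.9 with a median of 11.4 in white (3.15 ± 0.30, limma adjusted p = 2.12e-08). Gimap4, a GTPase of the immune-associated family, and Rasip1, which acts in vessel formation, differed by 3.93 ± 0.46 and 3.52 ± 0.43. Rpl39l, a ribosomal protein paralog, differed by 3.21 ± 0.32, and probes of close paralogs can read each other.

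On the white side, Zbtb20, a zinc finger repressor, read 1.99, 2.78, 13.8, 4.21 and 21.9 in brown and 123 to 282 with a median of 225 in white (−4.20 ± 0.46, limma adjusted p = 1.82e-07), with 3 of 5 brown arrays under the floor, on which this size depends. Cck, the cholecystokinin gene, lay at the floor on all 5 brown arrays and read 64.7 to 231 with a median of 129.8 in white, at least 15.8-fold lower (limma, adjusted p = 2.82e-07). Among day 7 arrays only white ones, where Cck was high, could count toward the signal filter. Its p-value is no support apart from that choice. The probe set assigned to Wdr92 was bright, with 875, 825, 954, 878 and 437 in brown and 8461 to 9834 with a median of 9269 in white (−3.59 ± 0.23, limma adjusted p = 2.86e-11). Nfib, a nuclear factor I gene, read 40.2, 34.6, 66.1, 37.1 and 86.7 in brown and 386 to 656 with a median of 555 in white (−3.44 ± 0.41, limma adjusted p = 7.86e-07). Hipk2, a nuclear kinase, and Mmp8, a collagenase, differed by −3.58 ± 0.66 and −3.16 ± 0.45, and on white array 44 both read far lower than on the other white arrays.

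Since the Gapdh ratio differs between the groups, the counts were also taken with that ratio as a covariate. The genes higher in brown then numbered 3 for heat production, 4 for the brown lineage, 8 for the TCA cycle, 1 for fatty acid oxidation, 1 for glycolysis, 7 for the cell cycle, 3 for striated muscle and 7 for endothelium. The lower genes numbered 5 for white-associated genes, 5 for extracellular matrix, 7 for Wnt, BMP and TGF-beta signalling, 4 for the IGF system, 4 for retinoid and steroid metabolism, 2 for complement, 3 for smooth muscle and pericytes and 0 for lipid synthesis. They were 1 higher and 3 lower for Hox genes, 2 higher and 0 lower for adipocyte genes, 0 higher for interferon response and 3 lower for macrophage markers. Over means of pairs the TCA cycle held 12 higher genes in place of 18, fatty acid oxidation 8 in place of 11, glycolysis 6 in place of 9 and endothelium 8 in place of 9.

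The day 4 arrays are other arrays than those of day 7 and give the contrast before differentiation. Most of their numbers run on into day 7 numbers of the same cell type. The labels do not say if the days share mice or dishes. Both contrasts also use the same estimate of spread for a probe set, pooled over both days. The days are therefore not independent tests of each other. At day 4, 1933 of 8397 probe sets passed (23.0%). Of the day 7 calls 1218 were also called at day 4 in the same direction (57.7% of the day 7 calls and 63.0% of the day 4 calls), 1 was called in the opposite direction, and 95.4% had the same sign. The share with the same sign over all probe sets was not taken. Zic1, Lhx8, Tcf21 and Hoxc8 differed at day 4 by 3.46, 3.62, −4.83 and −2.04, beside 3.04, 3.50, −5.09 and −1.64 at day 7. Cidea differed by 3.09 at day 4 and 5.60 at day 7, and Cox7a1 by 2.06 and 3.88, and the change between days did not pass (limma, adjusted p = 0.286 and 0.449).

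The brown minus white difference itself changed between the days for 18 probe sets (0.214%) and 12 genes (0.191%), 670 probe sets having an unadjusted p under 0.05. With neighbouring numbers as a block 5 probe sets passed, and over means of pairs 0 did in limma (446 at an unadjusted p under 0.05). Of the 8 genes named for a change, Fam167b, Acta1, Cyp2e1 and Ahsg passed with the block. Fam167b lay at the floor at day 4 on all 5 brown arrays and on 7 of 8 white arrays, and read 59.8, 74.8, 30.7, 57.3 and 79.5 in brown at day 7 (change 2.81, limma adjusted p = 0.000619). A probe set of Aqp1, a water channel, changed in the same way, from 0.12 at day 4 to 2.80 at day 7 (limma, adjusted p = 0.000619), although the brighter Aqp1 probe set did not differ at day 7 (−0.03). Fam167b and this Aqp1 probe set lay at the floor on all 6 white day 7 arrays and on nearly all day 4 arrays. They thus reached the signal filter through the 5 brown day 7 arrays, where they were high, and their p-values are no support apart from that choice. Probe sets of Cd34, Sox18 and Col18a1, genes of vessels among other tissues, also moved toward brown, with changes of 2.30, 2.13 and 1.48 (limma, adjusted p = 0.0477, 0.0477 and 0.0423). The brightest probe set of each of these genes did not pass for the change, at 1.14, 0.90 and 0.46 (limma, adjusted p = 0.329, 0.0844 and 0.625). Nor did the further Col18a1 probe sets, at 1.69 and 1.13 (limma, adjusted p = 0.408 and 0.651). Skeletal actin, Acta1, moved the other way, from 3.55 at day 4 to 0.91 at day 7 (limma, adjusted p = 0.00213). Cyp2e1, a cytochrome P450, read 72.5, 92.7, 71.6, 73.1 and 33.5 in brown and 161 to 410.3 with a median of 317 in white at day 7 and went from 0.06 to −2.16 (limma, adjusted p = 0.00127). Ahsg, a secreted glycoprotein, was lower in brown by −2.60 at day 4 and lay at −0.43 at day 7 (limma, adjusted p = 0.000273). At day 4 Ahsg lay at the floor on all 5 brown arrays, so −2.60 and the size of its change depend on the floor. Gpx3, a secreted peroxidase, changed sign, from −0.97 at day 4 to 0.59 at day 7 (limma, adjusted p = 0.00941). Its day 7 call was lost when any of 7 arrays was left out, with a highest adjusted p of 0.101. The count of 18 was 7 to 23 when 1 of the 24 arrays was left out.

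**Figure D5:**
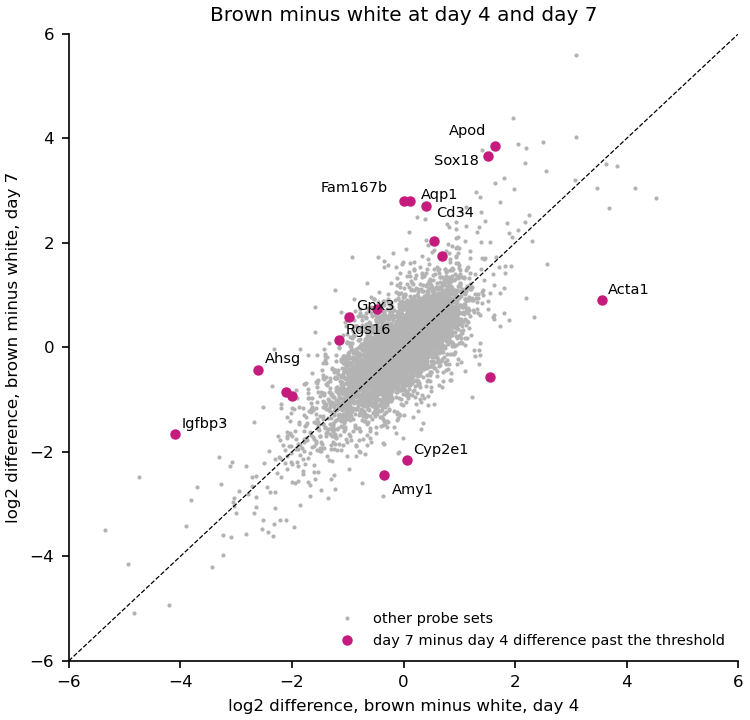
Log2 difference of brown minus white at day 4 (x axis) against day 7 (y axis) for 8397 probe sets, with the dashed line marking equal values and the 18 probe sets whose difference changed between days in colour (5 with neighbouring array numbers as a block). Fam167b and Aqp1 lie near 0 at day 4 and near 2.8 at day 7, and Acta1 lies at 3.55 and 0.91. The probe sets of Fam167b and Aqp1 reached the signal filter through the brown day 7 arrays, where they were high.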

How the data were processed

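Per the labels, RNA for 24 arrays was extracted with Trizol, and 5 ug was labelled in 1 round and hybridised to the Affymetrix chip. The authors deposited 1 MAS5 signal intensity per probe set and array, on a linear scale; MAS5 combines the probes of a set on each array separately; no version of it was found in these sources. Deposited day 7 arrays had a 2% trimmed mean of 150.09 to 150.12, and were scaled to 150.

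Of 12422 non-control probe sets, 8397 lay above the 40th percentile of their array on at least 5 arrays and were tested; 66 control probe sets were left out. Signals under the 20th percentile (8.21) were set to it and log2 taken. Group means of 24 arrays were fitted with limma 3.58.1 in R 4.3.3 (lmFit, eBayes with trend, 20 residual degrees of freedom), and p-values adjusted by Benjamini-Hochberg over all probe sets, with a threshold of 0.05. "Passed", "higher" and "lower" refer to it; ± after a log2 difference is the standard error. A gene was read by its brightest tested probe set (6281 genes). Of the probe sets, 10855 carried 1 gene symbol, 396 several and 1237 none. A fold of a gene at the floor on all arrays of a group is a bound against the floor.

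Named genes were the 15 of largest difference in each direction, up to 2 per list and direction, 8 whose difference changed between days, and a panel; further members of the lists were named after their values were seen. Members, lists and tests were chosen with earlier results of these data known. The number of arrays limits the precision. The fit was checked on simulated data. Alternatives changed scaling, floor, offset, filter, samples, weights, covariates and, after the data were seen, neighbouring array numbers (duplicateCorrelation or their mean).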

Additional observations from a re-analysis of the deposited data

Results flagged for a closer look

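Single arrays were set apart from the rest of their group in 9 of 230 groups of arrays, where chance gives about 1 in 20. The gap to the nearest array is taken as a share of the group's range on the log2 scale after values under 8.21 were raised to it, so that arrays under this floor count as equal. The raw signals are given in brackets. For Icam2 and Mmp8 the array set apart lies only a little above the floor, and most or all of the others at or near it. The share was 0.628 for Apod on white array 35 (22.6 against 1.38 to 12), 0.653 for Icam2 on white array 40 (8.77 against 3.61 to 8.4) and 0.943 for Rasip1 on white array 36 (32 against 4.74 to 8.87). It was 0.655 for Ncam1 on white array 39 (146 against 95.9 to 111). In brown it was 0.941 for Hoxa7 on array 22 (14.9 against 5.89 to 8.5), 1 for Mmp8 on array 11 (9.78 against 4.75 to 7.61) and 0.851 for Tyrobp on array 8 (30.4 against 4.87 to 9.98). Brown array 22 was lowest for Wdr92, with a gap of 0.814 (437 against 825 to 954), and for Cyp2e1, with a gap of 0.747 (33.5 against 71.6 to 92.7).

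The brown minus white difference changed between day 4 and day 7 (limma, adjusted p below the threshold) for 8 named genes. On the log2 scale the change was 2.22 for Apod, 2.81 for Fam167b, 2.18 for Ahsg, 1.56 for Gpx3 and 1.28 for Rgs16. It was -2.64 for Acta1, -2.22 for Cyp2e1 and -2.1 for Amy1. With neighbouring array numbers as a block, the changes of Apod, Amy1, Gpx3 and Rgs16 did not pass, and over means of neighbouring arrays none of the 8 did.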

How the results depend on the processing

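At day 7 the count of 2112 probe sets was 1446 to 2984 under the alternatives set at the start other than the covariate fits, and 274 with the Gapdh ratio and 410 with the beta-actin ratio as covariate; leaving out 1 array gave 1713 to 2040. With neighbouring array numbers as a random block it was 1460 and over means of neighbouring arrays 947, both chosen after seeing the data; the day 4 count of 1933 was 1300 and 808, and that of changed differences 5 and 0. The count of 18 changed differences between days was 35 with the floor at the 40th percentile, 10 without a floor, 10 without the filter, 8 with the filter at the 60th percentile, 45 with array weights, 5 with the Gapdh and 8 with the beta-actin covariate, and 9 without white arrays 35, 36 and 43; leaving out 1 array gave 7 to 23. The cause was not tested. Of 101 named calls, 45 held under every alternative set at the start and 76 under every one other than the covariate fits. The sign turned for Nsdhl with the Gapdh covariate (-0.256) and for Meg3 with the beta-actin covariate (0.2712). Leaving out 1 array ended the call of Acta1, Angpt1, Ccnd2, Ccne1, Cyp51, Flt1, Gpx3, Hoxb4, Hsd11b1, Lss, Sc5d, Six4, Th, Timp3 or Vcan. Without brown array 22, 98 named calls held; with the block 85 did, and over means 76 (Acta1, Angpt1, Ccnd2, Ccne1, Cyp51, Erbb3, Flt1, Gpx3, Hoxb4, Hsd11b1, Lss, Sc5d, Six4, Th, Timp3 and Vcan were lost in both). Signals near the floor limit what low genes can show. No paired analysis was possible because the groups share no replicate numbers.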
